A study of Mus musculus with 24 samples.

Results

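The broad distal peaks are 3871 stretches of open chromatin in neurons of the mouse striatum, each at least 1000 bases wide and lying in an intron or between genes. They were taken from an ATAC-seq table of 147020 peaks by 4 conditions: chromosomes 1 to 19, an intron or intergenic annotation, a width of at least 1000 bases, and no repeat element or CpG island in the detailed annotation. No read count entered the choice, although a peak's width is drawn from the pooled reads and therefore goes with its level. The members make up 2.63% of all peaks and 4.45% of the 86980 intron and intergenic peaks on these chromosomes that carry no repeat or CpG island annotation. The other 83109 of those, which are narrower, serve below as the comparison. Of the members, 2217 lie in introns and 1654 between genes, and all 3871 passed the filter on low counts.

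The study crossed a mouse model of Huntington's disease with mice that lack Msh3, and asked how the chromatin of striatal neurons differs between the 4 resulting genotypes. All animals were 12 months old and on a C57BL/6 background, with 3 females and 3 males per genotype, and 1 library was made from 50000 NeuN+ nuclei of each striatum sample. WT stands for wild type. Q140 stands for Het (Q140) KI, animals with 1 huntingtin (Htt) allele replaced by a knock-in with an expanded CAG tract. Msh3KO stands for Msh3-/-, which lacks a DNA mismatch repair protein, and Q140_Msh3KO stands for Msh3-/- X Het (Q140) KI. The knock-in is present in the germline and not limited to a cell type. NeuN marks the nuclei of most neurons, so the libraries mix projection neurons with striatal interneurons.

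ATAC-seq uses a transposase that inserts sequencing adapters where DNA is not wrapped tightly in nucleosomes. Away from promoters such open stretches are mostly enhancers and insulators, which bind transcription factors and act on genes at a distance. A wide accessible stretch usually holds several factor binding sites side by side, and groups of strong enhancers near genes that define a cell type are a known feature of striatal projection neurons, the GABA-releasing cells that Huntington's disease affects most. Msh3 is known to promote the somatic growth of the CAG tract, and its loss in mice is known to slow that growth.

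Some members cover an annotated gene start although their peak class is intron or intergenic. Of the members on chromosomes for which start sequences were used, 362 overlap a window from 250 bases before to 50 bases after a RefSeq start, and 309 windows lie wholly inside 264 members. Of these 264 members, 9 were called lower and 11 called higher in Q140 than in WT, with all 24 libraries. Here called means an adjusted p under 0.05 from edgeR's quasi-likelihood test with Benjamini-Hochberg adjustment over all tested peaks. Over all members 11.2% were called lower and 5.22% higher, and over all tested peaks 6.11% and 4.2%. The sequences of 7 such windows are shown (RefSeq, GRCm38.p6, 5′ to 3′ on the strand of the gene), because a start window is the stretch of member DNA whose sequence was used here: 3 from the lower members of smallest p, 3 from the higher ones, and 1 from the widest member that holds a window. Capitals mark matches to the motifs named after them.
Gm35970: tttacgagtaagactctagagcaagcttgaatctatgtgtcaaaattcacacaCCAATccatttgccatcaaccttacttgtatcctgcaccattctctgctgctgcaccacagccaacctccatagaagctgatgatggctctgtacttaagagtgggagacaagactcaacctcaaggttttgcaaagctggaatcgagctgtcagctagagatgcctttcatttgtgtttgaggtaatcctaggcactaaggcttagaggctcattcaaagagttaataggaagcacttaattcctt
1810020O05Rik: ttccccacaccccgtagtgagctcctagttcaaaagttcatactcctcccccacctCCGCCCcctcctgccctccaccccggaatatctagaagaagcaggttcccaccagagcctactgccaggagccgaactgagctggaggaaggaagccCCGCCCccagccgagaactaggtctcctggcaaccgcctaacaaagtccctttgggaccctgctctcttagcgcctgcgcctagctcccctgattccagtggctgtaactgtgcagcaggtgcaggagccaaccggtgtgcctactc
Gm38948: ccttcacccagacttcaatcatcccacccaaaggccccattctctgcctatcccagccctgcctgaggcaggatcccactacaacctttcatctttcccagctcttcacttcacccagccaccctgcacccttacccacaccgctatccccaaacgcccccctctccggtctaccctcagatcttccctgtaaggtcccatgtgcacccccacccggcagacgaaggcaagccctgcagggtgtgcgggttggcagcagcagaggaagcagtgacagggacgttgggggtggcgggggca
Gm30504: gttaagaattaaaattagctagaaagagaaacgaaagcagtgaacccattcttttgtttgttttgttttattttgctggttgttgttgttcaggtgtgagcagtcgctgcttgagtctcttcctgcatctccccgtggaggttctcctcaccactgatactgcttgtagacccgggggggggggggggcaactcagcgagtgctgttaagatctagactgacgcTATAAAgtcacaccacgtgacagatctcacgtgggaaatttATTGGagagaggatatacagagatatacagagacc
Gm52245: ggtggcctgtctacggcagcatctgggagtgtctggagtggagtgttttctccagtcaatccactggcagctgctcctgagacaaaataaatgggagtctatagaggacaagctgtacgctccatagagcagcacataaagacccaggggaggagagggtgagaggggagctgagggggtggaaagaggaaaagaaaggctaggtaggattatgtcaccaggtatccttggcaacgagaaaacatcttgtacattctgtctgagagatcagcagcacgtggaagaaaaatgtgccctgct
Ano4: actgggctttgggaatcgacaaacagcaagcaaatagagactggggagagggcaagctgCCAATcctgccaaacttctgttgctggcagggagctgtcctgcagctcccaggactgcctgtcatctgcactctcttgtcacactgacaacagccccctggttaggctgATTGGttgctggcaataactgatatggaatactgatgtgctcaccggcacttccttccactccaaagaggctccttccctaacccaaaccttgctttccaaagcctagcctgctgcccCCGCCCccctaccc
Fat3: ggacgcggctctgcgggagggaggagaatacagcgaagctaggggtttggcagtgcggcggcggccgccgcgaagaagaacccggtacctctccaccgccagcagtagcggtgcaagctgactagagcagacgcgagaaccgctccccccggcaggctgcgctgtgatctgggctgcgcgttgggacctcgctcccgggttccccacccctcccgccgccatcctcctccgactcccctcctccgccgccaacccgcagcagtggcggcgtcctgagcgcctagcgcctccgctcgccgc
The Gm35970 window (chr7:134410202-134410501, plus strand) lies in the member chr7:134409667-134411073, which fell by 0.86 on the log2 scale with an SE of 0.14 (adjusted p 2e-05, edgeR). The 1810020O05Rik window (chr6:87722698-87722997, minus strand) lies in a member that fell by 0.68 ± 0.12, and the Gm38948 window (chr7:15980072-15980371, plus strand) in a member in an intron of Ehd2 that fell by 0.60 ± 0.11. The higher members were those with the Gm30504 window (chr8:45110236-45110535, plus strand, 0.98 ± 0.14), the Gm52245 window (chr16:24941355-24941654, minus strand, 1.00 ± 0.14) and the Ano4 window (chr10:89257741-89258040, minus strand, 0.53 ± 0.11). The member with the Fat3 window (chr9:16502005-16502304, minus strand) is 3069 bases wide and was not called (-0.03 ± 0.13). Its window holds 35 CpG dinucleotides and 71.3% G and C, against 2 to 10 CpG in the other 6.

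5 motifs were searched on both strands of all 32851 start windows of this length and in the 309 inside members: AP-1 (TGANTCA), the cAMP response element (TGACGTCA), the GC box (GGGCGG), the CCAAT box (CCAAT) and the TATA box (TATAAA). The GC box was found in 45.6% of the windows inside members and in 35.7% of all windows, and the CCAAT box in 33.3% and 37.4%. AP-1 letters were found in 6.80% and 7.81%, the cAMP response element in 1.62% and 1.79%, and the TATA box in 9.71% and 13.6%. The windows inside members had a median of 57.3% G and C and 12 CpG, against 52.7% and 7 in all windows, so the higher share of GC boxes goes with a higher GC content. Among the 7 windows shown, the GC box stands at 2 places in 1810020O05Rik and at 1 in Ano4, the CCAAT box at 2 places in Ano4 and at 1 each in Gm35970 and Gm30504, and the TATA box in Gm30504. A match describes letters and not a bound site. 0 of the 919 RefSeq miRNA hairpins on these chromosomes lie inside a member.

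Total counts in peaks ran from 4372251 to 11736557 per library, and the members held 7.77% to 10.3% of them. The median member held 131 counts per library, against 26.5 in a narrower peak, so the members are measured with less counting error than most peaks. 3 libraries stand apart. Q140 F2, from an animal labelled female, had 1.47% of its counts on the X chromosome, against 1.72% to 1.94% in the 11 other female libraries and 1.49% to 1.59% in the 12 male ones. In Q140_Msh3KO M1 the 10 highest peaks held 12.7% of the counts, against 2.52% to 6.82% in the 23 others. In WT F3 the members apart from the highest held 8.38% of the counts, against 7.64% to 7.83% in the 5 other WT libraries and 6.99% to 7.96% in Q140. In Msh3KO the share reached 8.32% (F3) and 8.01% (M1). WT F3 moves the balance of higher and lower members in Q140 against WT more than any other library, so counts of that comparison are given with and without it, except where all 24 libraries are named.

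The members had a median width of 1164 bases, and 4568 at most. The distance from a member to the nearest annotated gene start had a median of 33017 bases, and a member is named below by that gene, which need not be the one it acts on. Of the intron members, 2214 could be placed in a RefSeq gene, and for 1562 of them that host gene is also the gene of the nearest start. In WT the median member stood at 16.2 CPM, the usual depth-scaled count (here with TMM scaling), against 3.22 in a narrower distal peak. Per kb of width the medians were 13.5 and 8.52 CPM, so the members were more accessible per base as well as longer.

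The widest member, chr1:24611579-24616147 between genes and nearest to Col19a1, is 4568 bases wide and held between 0.448% and 2.82% of all counts of a library. This stretch of chromosome 1 is known as a nuclear copy of mitochondrial DNA. It stood at 8539 CPM in the lowest and 28867 in the highest WT animal, and was not called in Q140 (-0.64 ± 0.37, adjusted p 0.354, edgeR). WT F1 and Msh3KO F1 were far above the other animals of their genotypes there. The same 2 libraries stood high at both intergenic members nearest to Gad2, a GABA synthesis enzyme (chr2:22588502-22590221 and chr2:22587404-22588432). These 2 members and 2 near 9230019H11Rik on chromosome 10 were, after the Col19a1 member, the most accessible per kb in WT. None of these 5 was called in any comparison, and what the libraries share was not tested.

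Of the other 4 widest members, 2 were called in Q140. The 4015-base member in intron 1 of Smad4 (chr18:73689536-73693551), the common mediator of TGF-beta signalling, stood at 107, 142 and 154 CPM (lowest, median, highest of 6) in WT and at 63.7, 67.5 and 104 in Q140. No Q140 animal reached the lowest WT animal, and the difference was -0.86 ± 0.14 (adjusted p 9.79e-05, edgeR). In Msh3KO the same member stood at 98.3, 119 and 163 CPM, and in Q140_Msh3KO at 82.3, 91.8 and 151. The 3448-base member in intron 3 of Tsnax (chr8:125020282-125023730), which encodes a partner of the RNA-binding protein translin, went the other way, from 44.8, 60.3 and 94.2 CPM in WT to 106, 125 and 201 in Q140 (1.00 ± 0.15, adjusted p 3.47e-05, edgeR). All 6 Q140 animals were above all 6 WT animals there, and Q140_Msh3KO animals lay between 77.6 and 102. The members nearest to Smgc (-0.14 ± 0.24) and in intron 1 of Fat3, an atypical cadherin, were not called.

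In Q140 against WT, 202 members were called higher and 432 lower, which is 5.22% and 11.2% of the members. Over all 146155 tested peaks the shares were 4.2% higher and 6.11% lower. The median difference was -0.04 on the log2 scale over the members and -0.01 over all tested peaks, and 1247 members had an unadjusted p under 0.05. The differences were mostly small. 15 members rose and 21 fell by more than 1 on the log2 scale, 0.930% of the members against 1.81% of all tested peaks; without the library WT F3 these were 21 and 14 members, 0.904% against 1.74%. Members called and with no overlap between the 6 Q140 and the 6 WT animals numbered 99 higher and 231 lower, 2.56% and 5.97% of the members, against 1.82% and 2.78% of all tested peaks. Without WT F3 the shares were 3.38% and 5.14% of the members, against 2.07% and 2.47%, so lower members still outnumbered higher ones here. P-values here measure the spread between animals.

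Most of the excess of lower members went with 1 library. Without WT F3, 246 members were called higher and 257 lower, 6.35% and 6.64%, the members' median was 0.02, and over all tested peaks the shares were 4.11% and 4.02% with a median of 0.00. Of the 202 higher members 189 were still called, and of the 432 lower members 256. All 634 kept their sign, and the median of the lower ones moved from -0.54 to -0.46 while that of the higher ones moved from 0.52 to 0.57. Leaving out any other of the 23 libraries gave 308 to 549 lower members and medians from -0.08 to 0.00. Without Q140 F1, the nearest to an even split among these, 281 members were higher and 331 lower, and without WT M2, the farthest from one, 155 and 549. In males alone, where no WT F3 animal enters the contrast, 69 were higher and 102 lower (68 and 105 by DESeq2). Another scaling also moved the split. By total counts the members divided into 293 higher and 414 lower, and by cyclic loess with limma into 413 and 615.

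Among the members that fell most, the largest difference was at chr8:23655298-23656414, 13.8 kb from the start of Zmat4, a gene for a zinc finger protein. It stood at 22.3, 26.9 and 29.5 CPM in WT (lowest, median, highest) and at 6.02, 8.80 and 11.1 in Q140. The groups did not overlap, and the difference was -1.59 ± 0.15 (adjusted p 2.04e-09, edgeR). The member in intron 4 of Chrna7 (chr7:63130388-63131890), the alpha-7 nicotinic acetylcholine receptor subunit, stood at 25.0, 28.5 and 38.9 CPM in WT and at 9.21, 11.4 and 15.9 in Q140, again without overlap (-1.33 ± 0.14, adjusted p 5.93e-09). A member in intron 4 of Wnt8b, a secreted Wnt ligand (chr19:44510435-44511555), went from 18.2, 21.4 and 26.9 CPM to 7.99, 8.88 and 10.7 (-1.25 ± 0.15). One 156 kb from 1700031L13Rik went from 10.5, 14.7 and 19.5 CPM to 3.90, 6.41 and 6.79 (-1.34 ± 0.17). In each of these 4 the highest Q140 animal was below the lowest WT animal.

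The other 6 of the 10 lower members with the largest differences and no overlap fell by 1.16 to 1.21 on the log2 scale. They lie near Pars2, a mitochondrial prolyl-tRNA synthetase (-1.21 ± 0.13), in intron 8 of Anks1b, which encodes a postsynaptic scaffold protein (-1.19 ± 0.15), 785 kb from Cdh11, a cadherin (-1.18 ± 0.17), near Mir7038 (-1.17 ± 0.14), 93.6 kb from Pde7b, a cAMP phosphodiesterase (-1.17 ± 0.17), and 107 kb from Nup35, a nucleoporin (-1.16 ± 0.16). The Pde7b member stood at 10.7, 14.7 and 18.2 CPM in WT and at 5.20, 5.84 and 8.23 in Q140. Every one of these 10 members was still called lower under each of the 8 other settings and with any 1 library left out, WT F3 included.

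The higher members started from lower levels. The largest difference was at chr14:105818448-105819502, 77.8 kb from Spry2, an inhibitor of receptor tyrosine kinase signalling. It stood at 4.34, 5.12 and 6.61 CPM in WT and at 12.3, 15.0 and 21.2 in Q140, with no overlap (1.58 ± 0.15, adjusted p 1.9e-09, edgeR). A member 53.5 kb from Mir6363 went from 4.34, 5.11 and 7.04 CPM to 11.2, 15.6 and 22.3 (1.55 ± 0.19), and one 57 kb from Cetn3, a centrin of the centriole, from 4.69, 6.04 and 6.61 to 10.2, 17.7 and 22.9 (1.54 ± 0.18). The lowest Q140 animal was above the highest WT animal in all 3. A member 9.07 kb from Hoxc8, a homeobox gene of the posterior body axis (chr15:102999076-103000139), stood at 3.88, 4.93 and 6.03 CPM in WT and at 9.23, 11.4 and 13.6 in Q140 (1.25 ± 0.15, adjusted p 9.76e-08).

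6 more members complete the 10 higher ones with the largest differences and no overlap. 1 on chromosome 18 (chr18:51960481-51961489) rose by 1.41 ± 0.17. The table names Mir28a as its gene, which RefSeq places on chromosome 16, so it is given by position. The others lie 128 kb from 9330178D15Rik (1.36 ± 0.18), 45.8 kb from Zfp536, a zinc finger repressor (1.35 ± 0.18), 6.06 kb from Fbxo34, an F-box protein (1.17 ± 0.15), in intron 1 of Stfa1, a cysteine protease inhibitor (1.15 ± 0.16), and in intron 7 of Sema3c, a secreted semaphorin (1.06 ± 0.16). These 10 members also stayed called higher under the 8 other settings and with any 1 library left out. The median of Q140_Msh3KO lay between those of WT and Q140 at 9 of the 10, the exception being Hoxc8.

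**Figure D1:**
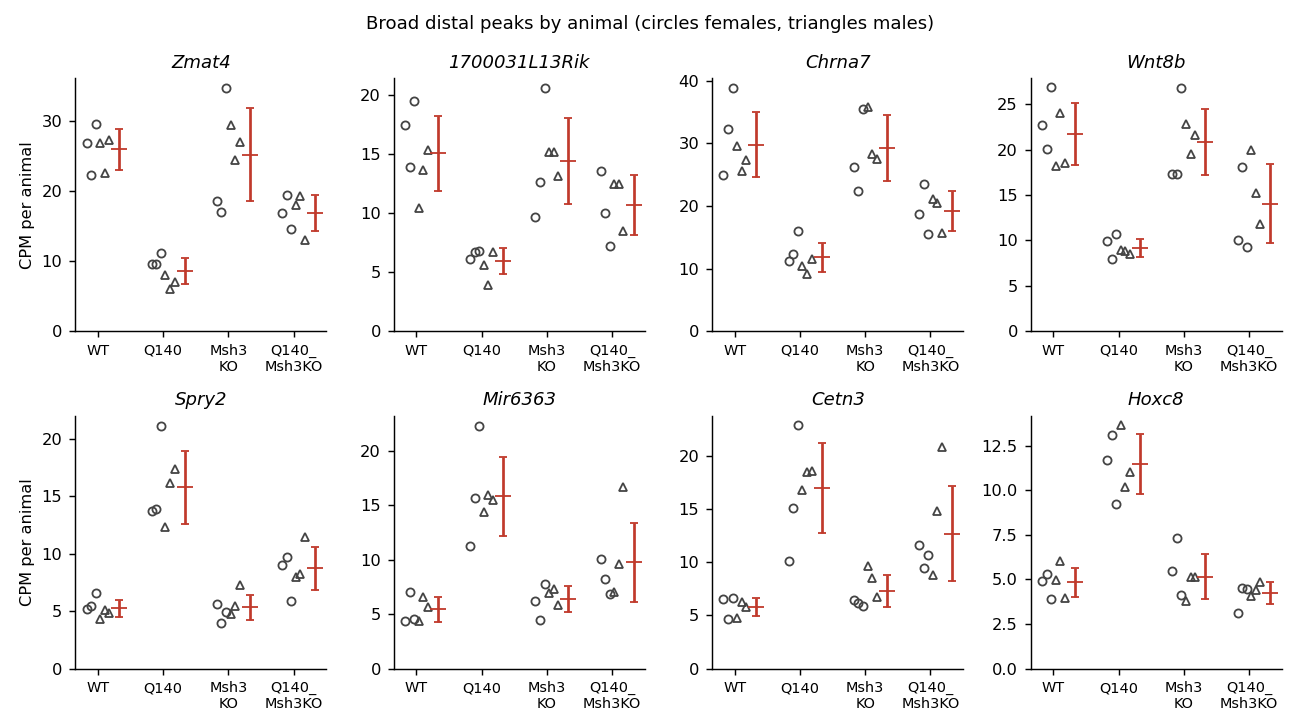
CPM per animal (vertical axis) of 8 broad distal peaks in the 4 genotypes, named by nearest gene, with circles for females, triangles for males, and a bar for mean ± SD of 6 animals. Zmat4, 1700031L13Rik, Chrna7 and Wnt8b are lower in Q140 than in WT and Spry2, Mir6363, Cetn3 and Hoxc8 higher, without overlap of those 2 groups; at Hoxc8 the Q140_Msh3KO animals (3.13 to 4.87 CPM) lie at the WT level.

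Among the broad peaks the share called fell with width. In the class next to the threshold (2472 members; the plot of shares by width gives the bounds), 5.74% were called higher and 11.8% lower. In the next class (892 members) the shares were 4.93% and 10.54%, and among the 507 members of 1500 bases and more 3.16% and 9.07%. The median size of the difference, whatever its sign, fell along the same classes from 0.18 to 0.17 and 0.14 on the log2 scale. Distal peaks of 600 to under 800 bases reached 8.15% higher and 13.2% lower with a median size of 0.23, although they hold fewer counts (median 59.4 per library, against 115 in the narrowest members and 206 in the widest). Without WT F3 that class had 8.41% and 8.46%. Just outside and just inside the width threshold, the 902 peaks up to 50 bases narrower had 6.98% higher and 13.0% lower, and the 734 members up to 50 bases wider 6.54% and 10.6%. These were 8.65% and 8.87%, and 7.49% and 6.40%, without WT F3. Without WT F3 the 3 classes of members had 6.96%, 5.94% and 4.14% higher and 6.96%, 6.39% and 5.52% lower, so the fall with width remained, and in the class next to the threshold the higher and lower calls were equal in number (172 each). These shares are a description, and the difference between broad and narrower peaks was not tested.

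**Figure D2:**
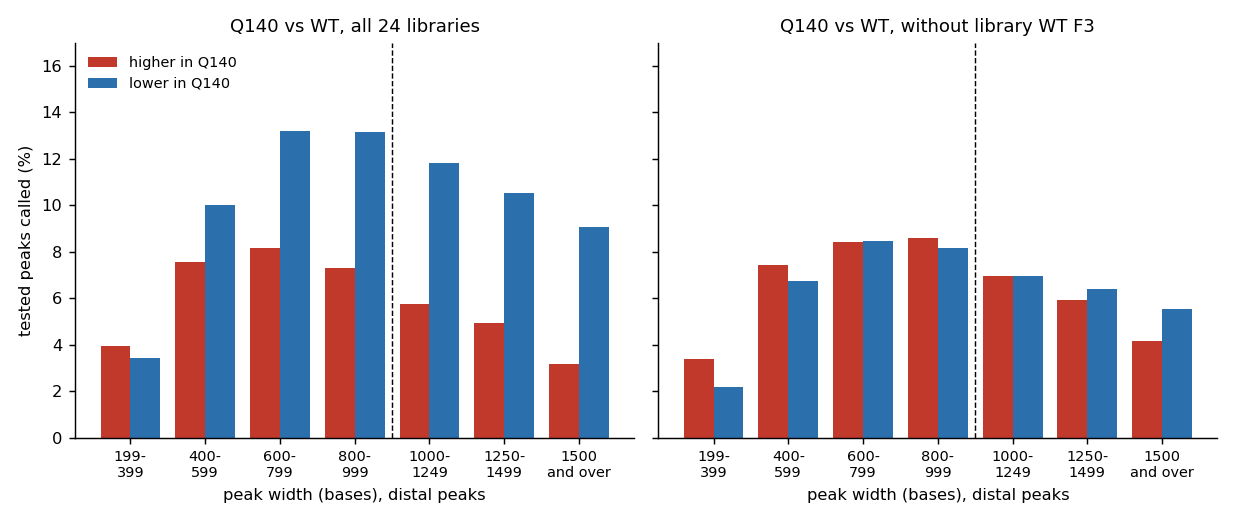
Percent of tested distal peaks called higher (red) or lower (blue) in Q140 than in WT by peak width in bases, with all 24 libraries (left) and without WT F3 (right); the dashed line marks 1000 bases, the threshold of the broad distal peaks. Right of the line the shares fall with width, and the gaps between blue and red bars there are smaller without WT F3.

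Direction went with the level of a member. By mean CPM over all 24 libraries, 11.4% of the 228 members at 4 to 8 CPM were called higher and 3.95% lower. At 8 to 16 CPM (1703 members) the shares were 8.22% and 10.45%, at 16 to 32 CPM (1511 members) 2.18% and 12.7%, and at 32 to 64 CPM (389 members) 0.514% and 12.9%. Over these 4 bands the share called higher fell with the level and the share called lower rose; of the 40 members above 64 CPM, 1 was higher and 3 lower. Without WT F3 the counts were 25 higher and 8 lower at 4 to 8 CPM, 151 and 111 at 8 to 16, 61 and 107 at 16 to 32, and 8 and 28 at 32 to 64, so the order over the levels was kept. Narrower distal peaks of the same levels had 1.71% higher and 18.3% lower at 16 to 32 CPM, and 5.59% and 15.99% at 8 to 16 CPM. Without WT F3 they had 3.09% and 9.67% at 16 to 32 CPM, against 4.04% and 7.08% of the members, and 6.79% and 10.02% at 8 to 16 CPM, against 8.87% and 6.52%. With all 24 libraries the median difference of narrower distal peaks also fell with the level, from 0.03 at up to 4 CPM to -0.15 at 16 to 32 CPM. The levels of the Q140 and WT animals enter both the level and the difference. The split by level was made with TMM scaling, and its dependence on the scaling was not tested.

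A smaller share of the members close to a gene start was called lower than of those farther away. Of the 323 members within 1 kb of an annotated start, 10 were called higher and 5 lower, and their median difference was 0.05. That is 3.10% and 1.55%, against 4.2% and 6.11% of all tested peaks. Members 1 to 5 kb away had 8 higher and 25 lower calls among 241, those 5 to 20 kb away 43 and 98 among 876, and those 20 to 50 kb away 45 and 120 among 934. At 50 to 100 kb there were 38 and 85 among 696, and beyond 100 kb 58 and 99 among 801. In these classes farther away 3.32% to 7.24% were higher and 10.4% to 12.8% lower. The members within 1 kb were also wider, with a median of 1346 bases against 1146 to 1164. They were higher in WT, with a median of 21.9 CPM against 14.9 to 19.1. The part of width and level in the calls near starts was not tested. Without WT F3 the members within 1 kb had 12 higher and 3 lower calls with a median of 0.11. That is 3.72% and 0.929%, against 4.11% and 4.02% of all tested peaks. The other classes then had 10 and 13, 58 and 64, 57 and 74, 41 and 43, and 68 and 60 from near to far. The low count of lower calls near starts was therefore seen with and without that library. The same split appears by sequence, since the 362 members that overlap a RefSeq start window had 16 higher and 12 lower calls (19 and 7 without WT F3), and the 3344 that do not had 175 and 409 (216 and 243). With all 24 libraries these are 4.42% and 3.31%, against 5.23% and 12.2%. The other 165 members are on chromosome 18, whose start windows were not analysed here. Intron members had 107 higher and 234 lower calls (132 and 131 without WT F3), and intergenic ones 95 and 198 (114 and 126). With all 24 libraries these are 4.83% and 10.6%, and 5.74% and 12.0%, near the 5.22% and 11.2% of all members.

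**Figure D3:**
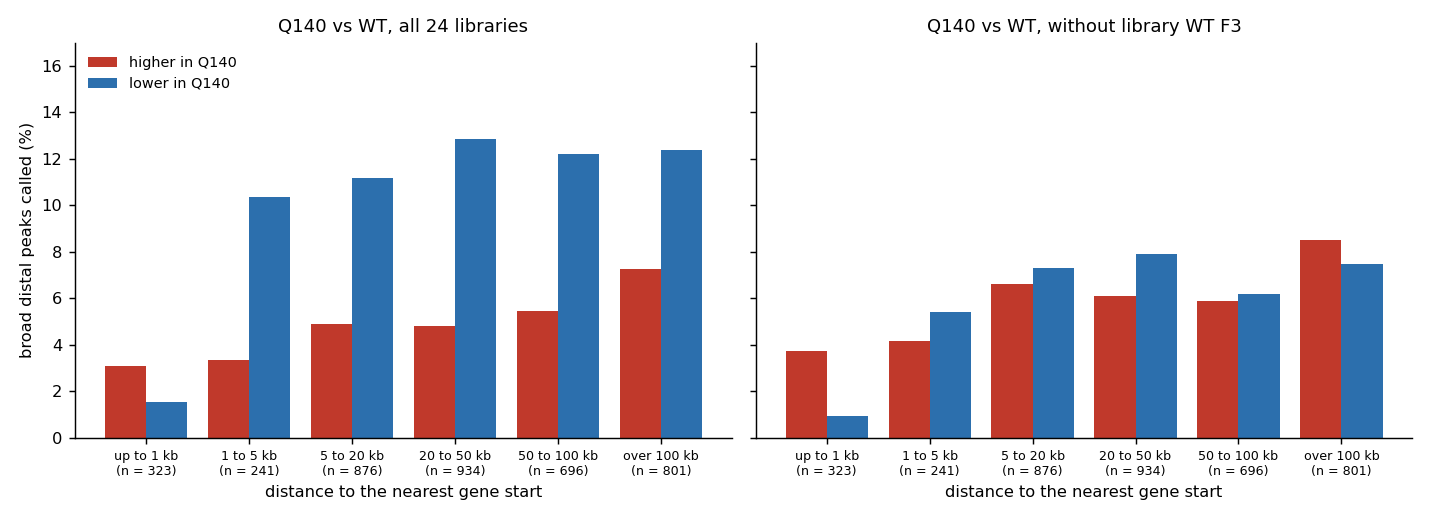
Percent of broad distal peaks called higher (red) or lower (blue) in Q140 than in WT by distance to the nearest annotated gene start, with the number of peaks under each class, for all 24 libraries (left) and without WT F3 (right). Within 1 kb of a start the red bar exceeds the blue one in both panels (10 against 5, and 12 against 3 peaks).

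Members near genes of the projection neuron programme were lower or not called. The gene lists were chosen with earlier results of these data known, so the shares of each list are a description. The 40 genes of the identity list for striatal projection neurons (SPN) had 40 members at 19 genes, of which 0 were called higher and 9 lower (22.5%), with a median of -0.10. Over all members 11.2% were lower, and over all tested peaks 6.11%. Without WT F3 the count was 0 and 5 (12.5%, against 6.64% of all members and 4.02% of all tested peaks), with a median of -0.05. The lower members lie at Foxp1, a transcription factor of these cells (-0.69 ± 0.14), in intron 1 of Adcy5, their main adenylyl cyclase (-0.66 ± 0.12), at Ikzf1, a transcription factor (-0.62 ± 0.14), at Rgs9, a regulator of G protein signalling (-0.51 ± 0.12), and at Syndig1l, a transmembrane protein of striatal neurons (-0.44 ± 0.11), all 5 still called without WT F3. Those at Pde10a, a striatal phosphodiesterase (-0.54 ± 0.15), at Zswim6 (-0.46 ± 0.14), at Nexn, an actin-binding protein (-0.42 ± 0.14), and at Itpr1, the inositol trisphosphate receptor (-0.38 ± 0.12), were not called without it (adjusted p 0.0961, 0.0579, 0.159 and 0.190, edgeR). The Pde10a call was also lost without Q140 F1 or Q140 M2, and the Itpr1 call was lost in 16 of the 24 fits that leave out 1 library. The Adcy5 member (chr16:35231800-35232858) stood at 30.7, 38.4 and 45.2 CPM in WT and at 20.0, 23.1 and 27.8 in Q140, with no overlap. In bulk nuclei, fewer cells of a type and less accessibility per cell cannot be told apart.

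The cAMP and dopamine signalling list (49 genes) had 24 members at 17 genes, with 0 higher and 6 lower calls (25.0%) and a median of -0.18. It shares Adcy5, Pde10a and Rgs9 with the SPN list and adds the Pde7b member, 1 in an intron near Ppp1ca, the catalytic subunit of protein phosphatase 1 (-0.78 ± 0.13), and 1 near Adcy3, another adenylyl cyclase (-0.47 ± 0.12). Without WT F3 the counts were 1 higher and 5 lower, with a median of -0.08. That is 4.17% and 20.8%, against 6.35% and 6.64% of all members and 4.11% and 4.02% of all tested peaks. Among 19 members at 14 of 44 activity-regulated genes, 0 were higher and 3 lower (15.8%, against 11.2% of all members and 6.11% of all tested peaks). These 3 lie near Npas4, a neuronal transcription factor induced by activity (-0.65 ± 0.19), Plk2, a kinase that weakens synapses (-0.62 ± 0.13), and Trib1, a pseudokinase (-0.44 ± 0.12). Only the Plk2 member was still called without WT F3 (5.26%, against 6.64% of all members), and the median of the list went from -0.03 to 0.09. The Plk2 member (chr13:110540512-110542050) stood at 29.5, 40.6 and 49.9 CPM in WT and at 21.3, 26.1 and 31.7 in Q140, and those ranges overlap.

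Glutamate receptor and postsynaptic genes (61) had 59 members at 32 genes, with 0 higher and 6 lower calls and a median of -0.08 (0 and 3, median 0.00, without WT F3). The share of lower calls, 10.2%, was below the 11.2% of all members. Without WT F3 it was 5.08%, against 6.64% of all members and 4.02% of all tested peaks. The lower ones were named by Lrrtm1, a synaptic adhesion protein (-0.92 ± 0.15), Grik2, a kainate receptor subunit (-0.71 ± 0.17), Gria4, an AMPA receptor subunit (-0.60 ± 0.16), Lrrc4c, a synaptic adhesion protein (-0.52 ± 0.15), Cacng2, the AMPA receptor partner stargazin (-0.44 ± 0.13), and Dlgap3, a postsynaptic scaffold (-0.37 ± 0.12). The Lrrtm1 member lies in intron 8 of Ctnna2 and stood at 12.5, 13.3 and 13.4 CPM in WT and at 5.17, 7.08 and 8.80 in Q140, without overlap. Ion channel genes (63) had 42 members at 29 genes, 2 higher and 4 lower, with a median of -0.05 (2 and 1, median 0.03, without WT F3). These are 4.76% and 9.52%, against 5.22% and 11.2% of all members. Without WT F3 the shares were 4.76% and 2.38%, against 6.35% and 6.64% of all members and 4.11% and 4.02% of all tested peaks. The higher ones lie in introns at Cacna1i, a T-type calcium channel (0.55 ± 0.12), and Kcnip1, a partner of potassium channels (0.56 ± 0.15), and the lower ones at Cacna1e, an R-type calcium channel (-0.54 ± 0.13), Kcnk2, a potassium leak channel (-0.47 ± 0.14), Itpr1 and Itpr2 (-0.38 ± 0.11). The Cacna1i member stood at 10.7, 12.8 and 13.5 CPM in WT and at 15.0, 18.8 and 20.5 in Q140, with no overlap.

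Of 123 developmental regulators known as Polycomb targets, 111 were in the table and 9 had a member each. The Hoxc8 member was called higher, and 1 near Neurog3, a transcription factor of endocrine and neural precursors, lower (-0.69 ± 0.13). That is 11.1% in each direction, against 5.22% higher and 11.2% lower of all members, and both were still called without WT F3. Markers of cells other than SPN had few members: 1 for astrocytes, near Aqp4, 4 for oligodendrocytes, 0 for their precursors and for microglia, 1 for endothelial cells, in intron 1 of Esam, and 4 for cortical glutamatergic neurons, none of them called. Of 4 at striatal interneuron genes, 1 was lower, in intron 8 of Chat, the acetylcholine synthesis enzyme, and named by Slc18a3, the vesicular acetylcholine transporter (-0.59 ± 0.12, adjusted p 0.000666, edgeR). The Aqp4 member stood at 18.5, 22.2 and 26.5 CPM in WT and at 14.3, 23.6 and 26.5 in Q140.

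The summed CPM over all tested peaks of each marker list moved as follows. SPN genes (970 peaks) held 7525, 8448 and 9754 CPM in WT (lowest, median, highest) and 6629, 7297 and 8106 in Q140. The 40 SPN members alone held 1681, 2006 and 3837 CPM in WT and 1323, 1629 and 1933 in Q140. Both sums include the 2 uncalled members nearest to Gad2, together 1328 CPM in the WT mean, where WT F1 stood far above the other WT animals. Their differences in Q140 were -0.75 and -0.67, and their part in the lower SPN sums was not tested. Astrocyte genes (166 peaks) held 830, 850 and 975 CPM in WT and 764, 801 and 831 in Q140, and oligodendrocyte genes (122 peaks) 723, 739 and 812 against 677, 704 and 745. The medians of these 2 non-neuronal lists were lower in Q140, as was that of the SPN list. Precursor genes of oligodendrocytes (42 peaks) had medians of 175 and 175, microglial genes (64 peaks) 221 and 223, endothelial genes (89 peaks) 351 and 346, cortical genes (180 peaks) 790 and 822, and interneuron genes (163 peaks) 714 and 714. None of the lists was at 0 in a library, while Itgam and Trem2 of the microglial list have no peak in the table. The part of these levels in the calls of the members was not tested.

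**Figure D4:**
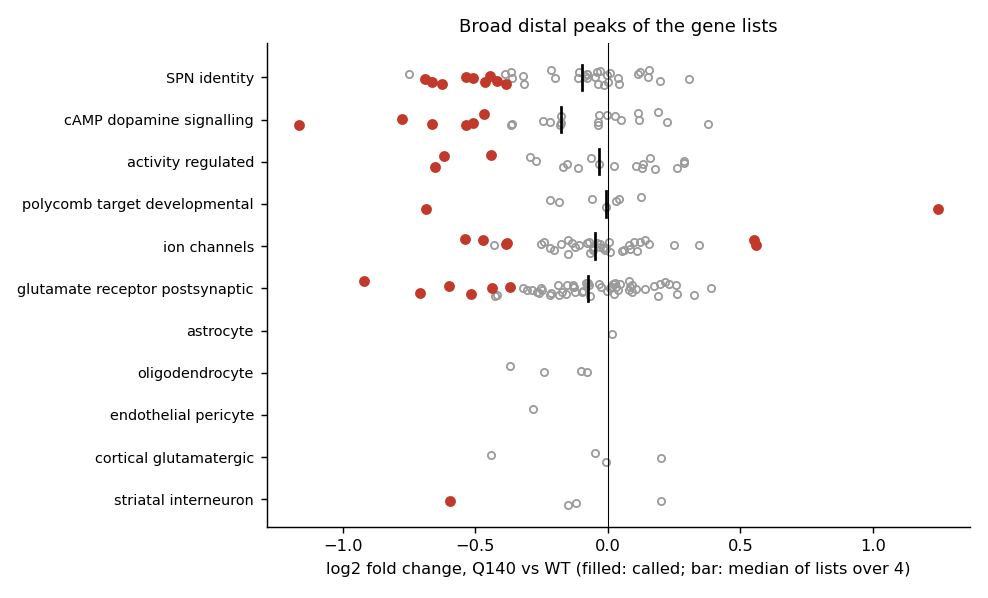
Log2 fold change in Q140 against WT (horizontal axis, all 24 libraries) of every broad distal peak whose nearest gene is on 1 of the lists. Filled points were called, open points were not, and the black bar is the median of lists with more than 4 members. In the SPN, cAMP, activity and glutamate lists each called point is left of 0; Hoxc8, Cacna1i and Kcnip1 are the called points to its right.

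The 3871 members have 2907 nearest genes, of which 2279 have 1 member and 29 have 5 or more. 14 genes had 2 or more lower members, 3 had 2 or more higher ones, and 12 had both; without WT F3 these were 4, 6 and 8 genes. Rbfox1, a neuronal splicing factor, had the most with 11. Its 2 lower members lie 9.08 kb apart from first start to last end, before the gene (chr16:5669036-5670061, -0.57 ± 0.15, and chr16:5676979-5678115, -0.96 ± 0.15), and 1 in an intron was higher (chr16:7158911-7160044, 0.47 ± 0.14). That higher call was lost without WT F1, M1, M2 or M3 or Q140 F2, F3 or M3. Anks1b had 8 members, with 3 lower ones in its introns (-1.19, -0.64 and -0.53), 1 higher (0.50 ± 0.12) and 4 not called, so members of 1 gene moved in both directions. Foxp1 had 7, of which 1 was lower and the others ran from -0.32 to 0.30. Dclk1, a microtubule-linked kinase, had 8 with 1 lower (-0.45 ± 0.14, lost without WT F3, M1 or M3 or Q140 F1, M1 or M2), and Meis1, a homeobox gene, had 6 with 0 called (-0.28 to 0.23). With all 24 libraries, all 6 members of Celf2, an RNA-binding protein, were lower without a call (-0.41 to -0.19).

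Few members lie near each other. With all 24 libraries, joined over gaps of up to 12.5 kb, 363 members form 176 clusters of at most 4 members. 3 clusters held 2 or more lower members and no higher one, at Klhl2 (-0.41 at the lowest), Gpr55 (-0.57) and Rbfox1 (-0.96), 0 held 2 or more higher members, and 1 held both. That one is at Spry2 (chr14:105804846-105819502), where a member that fell by 0.42 on the log2 scale lies within 14.7 kb of the one that rose by 1.58. Other peaks of the table within 25 kb of a member moved with it in part. Near members called higher, 7.29% of 823 peaks were called higher and 2.92% lower. Near members called lower, 1.84% of 2281 peaks were higher and 8.99% lower, and near members not called, 3.42% and 5.65% of 15714. These shares are from all 24 libraries and share animals and nearby DNA with the members they surround.

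In Msh3KO against WT, 0 members were called higher and 1 lower (0.0258% of members), against 0.00684% and 0.00616% of all tested peaks (edgeR). 62 members had an unadjusted p under 0.05, and every other tool and setting, and every fit with 1 library left out, gave 0 and 1 as well. The lower member lies in intron 4 of Sv2c, a synaptic vesicle protein, and is named by Iqgap2, a scaffold of the cytoskeleton (chr13:96010877-96011965). It stood at 22.9, 28.4 and 35.6 CPM in WT, 22.2, 28.3 and 31.6 in Q140, 8.64, 11.68 and 14.3 in Msh3KO, and 10.04, 13.0 and 13.6 in Q140_Msh3KO. All 12 animals without Msh3 were below all 12 with it. The difference was -1.30 ± 0.12 in Msh3KO against WT (adjusted p 4.08e-09) and -1.14 ± 0.12 in Q140_Msh3KO against Q140 (adjusted p 8.02e-08). It lies 3.66 Mb from Msh3 on the same chromosome. An effect of the missing protein and one of DNA that came with the targeted allele cannot be told apart. Within 20 Mb of Msh3 it was the only one of 73 members called in Msh3KO. In Q140 against WT with all 24 libraries, 6 of these 73 members were higher and 14 lower. Within 20 Mb of Htt 3 of 70 members were higher and 5 lower in that comparison. Over all members 5.22% were higher and 11.2% lower, and over all tested peaks 4.2% and 6.11%.

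In Q140_Msh3KO against Q140, which asks what the loss of Msh3 changes in animals that carry the expanded allele, 29 members were called higher and 10 lower. That is 0.749% and 0.258% of the members, against 0.31% and 0.219% of all tested peaks, and 489 members had an unadjusted p under 0.05. The Zmat4 member stood at 13.0, 17.4 and 19.4 CPM in Q140_Msh3KO, above all Q140 animals (0.96 ± 0.15, adjusted p 0.000691, edgeR). It stood at 17.1, 25.7 and 34.6 in Msh3KO. The Nup35 member rose by 0.91 ± 0.16, the Cdh11 member by 0.87 ± 0.17, the 1700031L13Rik member by 0.81 ± 0.18 and the Pde7b member by 0.79 ± 0.18. A member 273 kb from Rragc, a GTPase of the mTORC1 pathway (chr4:124189133-124190774), stood at 19.5, 23.1 and 28.2 CPM in Q140 and at 33.9, 41.9 and 44.4 in Q140_Msh3KO (0.79 ± 0.14, adjusted p 0.00292), beside 40.3, 50.3 and 65.9 in WT. Its Q140 and Q140_Msh3KO animals did not overlap.

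Lower in Q140_Msh3KO than in Q140 were, besides the Sv2c member, the members near Hoxc8 (-1.41 ± 0.15, adjusted p 8.02e-08, edgeR) and Spry2 (-0.87 ± 0.14, adjusted p 0.000909). The Spry2 member stood at 5.89, 8.65 and 11.4 CPM in Q140_Msh3KO, below every Q140 animal, and at 3.99, 5.17 and 7.26 in Msh3KO. Members near Gm38402 (-0.55 ± 0.12), in an intron of Dzank1, and near Magi3, a synaptic scaffold (-0.52 ± 0.13), were also lower. The Gm38402 call was lost without Q140 F3 or M2 or Q140_Msh3KO F2, M1 or M2. The Magi3 call was lost without any 1 Q140_Msh3KO library, without Q140 F2, F3, M2 or M3, and without WT M3, Msh3KO M2 or Msh3KO M3. These comparisons share the Q140 animals with Q140 against WT, where the same members had differences of -1.59 (Zmat4), -1.14 (Rragc), 1.25 (Hoxc8) and 1.58 (Spry2).

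The counts of this comparison depend on single libraries. The count of higher members fell to 12 without Q140_Msh3KO M2, to 15 without Q140 M1 or Q140 M2, to 16 without Q140_Msh3KO F1, and to 18 without Q140_Msh3KO F2 or M1. The count of lower members was 3 without Q140 F3, Q140_Msh3KO F2 or Q140_Msh3KO M1, 4 without Q140 F2, Q140 M2 or Q140_Msh3KO F3, 5 without Q140 M3 or Q140_Msh3KO M2, 6 without Q140 M1, 16 without Q140_Msh3KO M3 and 22 without Q140 F1. Without both Q140 F2 and Q140_Msh3KO M1 it was 9 higher and 3 lower. Scaled by total counts it was 30 and 17.

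The knock-in can be compared with its control in 2 backgrounds that share no animal. In Q140_Msh3KO against Msh3KO, 1 member was called higher and 1 lower (0.0258% each), against 0.0233% and 0.0924% of all tested peaks, and 329 had an unadjusted p under 0.05. The higher one is the 9330178D15Rik member (0.84 ± 0.18, adjusted p 0.0417, edgeR), at 2.88, 6.11 and 7.15 CPM in Msh3KO and 7.30, 10.4 and 14.8 in Q140_Msh3KO. The lower one is the Chrna7 member (-0.63 ± 0.13, adjusted p 0.0344), at 22.4, 27.9 and 35.7 CPM in Msh3KO and 15.5, 19.6 and 23.5 in Q140_Msh3KO. The first pair of groups did not overlap, and the second did. Single libraries change these counts. The higher count was 0 without Q140 F2 or M2, Q140_Msh3KO F1, F2, M2 or M3, Msh3KO M1, M2 or M3, or WT M2 or M3, 2 without Msh3KO F3, Q140 F1, Q140 F3 or Q140_Msh3KO F3, and 4 without Q140_Msh3KO M1. The lower count was 0 without Msh3KO F3, M1, M2 or M3 or Q140_Msh3KO F1, F3, M2 or M3, 2 without Q140_Msh3KO F2, WT F2 or WT F3, 3 without Q140_Msh3KO M1, 4 without Msh3KO F1 and 17 without Msh3KO F2.

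With all 24 libraries, members that differed in Q140 against WT mostly had the same sign in the other background, at a smaller size. Of the 202 higher members, 189 were also positive in Q140_Msh3KO against Msh3KO, and their median went from 0.52 to 0.19. Of the 432 lower members, 413 were also negative, and their median went from -0.54 to -0.20. These are 93.6% and 95.6%, against 88.1% and 92.3% of the peaks called higher and lower over all tested peaks. The medians there went from 0.74 to 0.25 and from -0.68 to -0.26, so the pattern was not particular to the members. With an unadjusted p under 0.05 in the same direction (edgeR) there were 63 and 140 members. Over all tested peaks there were 1732 of 6142 and 3167 of 8924. Whatever the call, 71.8% of the members and 61.9% of all tested peaks had the same sign in both backgrounds. Over all 3871 members the 2 log2 differences correlated with r = 0.675, a description across peaks that share libraries, against 0.430 over all tested peaks. The median member held 131 counts per library, against 27.6 over all peaks. The part of counting error in these shares and correlations was not tested. Members were chosen by the first comparison, so a smaller median in the second is partly given by that choice. Each control group holds a library with a high share of counts in members apart from the highest, 8.38% in WT F3 and 8.32% in Msh3KO F3. Without Msh3KO F3 the median of all members in the second comparison moved from -0.01 to 0.05. The part of these libraries in the shared signs was not tested.

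**Figure D5:**
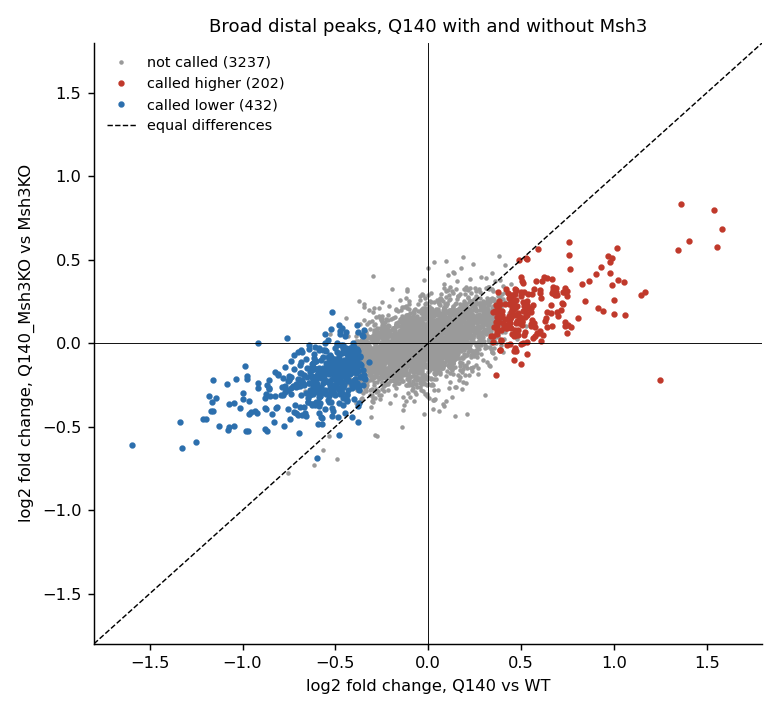
Log2 fold change of each broad distal peak in Q140 against WT (horizontal axis) and in Q140_Msh3KO against Msh3KO (vertical axis), with all 24 libraries. Color gives the call in Q140 against WT: 202 higher in red, 432 lower in blue, 3237 not called in grey. The dashed line marks equal differences. Red points lie mostly above 0 and blue points mostly below 0 on the vertical axis (189 of 202 and 413 of 432), closer to 0 than to the dashed line; the red point below 0 at the right is Hoxc8.

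The difference between the 2 backgrounds was itself tested as an interaction, and 1 member was called (0.0258%, against 0.0226% of all tested peaks), with 352 at an unadjusted p under 0.05. It is the Hoxc8 member, where the Q140 difference was larger without the Msh3 knockout than with it by 1.47 ± 0.22 on the log2 scale (adjusted p 0.00192, edgeR). It stood at 3.78, 5.12 and 7.31 CPM in Msh3KO and at 3.13, 4.43 and 4.87 in Q140_Msh3KO, so those 2 groups overlap while Q140 lies above all other animals. The Zmat4 member came next among those described, with -0.99 ± 0.21 (adjusted p 0.0686). The interaction count was 2 without Q140 F1, 3 without Q140_Msh3KO M3 and 11 without Msh3KO F3. Cyclic loess with limma moved it further, to 47 members (11 with a higher and 36 with a lower Q140 difference without the knockout than with it). DESeq2 called 5 (1 and 4), and limma-voom called 1, the same number as edgeR.

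In Q140_Msh3KO against WT, 20 members were higher and 13 lower, 0.517% and 0.336% of the members, against 0.252% and 0.274% of all tested peaks. The Cetn3 member rose by 1.10, the 9330178D15Rik member by 1.04 and the Spry2 member by 0.71 on the log2 scale, and the Chrna7, Wnt8b and Zmat4 members had differences of -0.64, -0.64 and -0.63. By cyclic loess with limma the split was 58 and 65, and by total counts 27 and 24. The higher count was 3 without Q140_Msh3KO M3 or WT M3, 4 without Q140_Msh3KO F1, 6 without WT M1, 8 without Q140_Msh3KO M2 or WT F2, 9 without Q140_Msh3KO F2, 11 without WT M2, 13 without WT F1 and 32 without Q140_Msh3KO M1. The lower count was 2 without Q140_Msh3KO M3, 3 without WT F3, 4 without Q140_Msh3KO F3 or WT M1, 5 without Q140_Msh3KO F1, Q140_Msh3KO M2 or WT M3, 6 without WT F1, 21 without Msh3KO F2 or Q140_Msh3KO F2, and 22 without WT M2.

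The Q140 difference did not separate the sexes at this threshold. 0 members, and 0.0% of all tested peaks, were called in the test of the difference between females and males (edgeR), with 76 members (1.96%) at an unadjusted p under 0.05, against 3.29% of all tested peaks. DESeq2 and limma-voom also called 0. In females alone 52 members were called higher and 156 lower, 1.34% and 4.03%, against 1.06% and 1.98% of all tested peaks. In males 69 and 102 were called, 1.78% and 2.63%, against 1.33% and 1.59%. The females' counts changed with the libraries used. Without WT F3 they were 34 and 34, 0.878% each, and the shares over all tested peaks also fell, to 0.469% and 0.470%. The males' counts were then 77 and 100. Without both Q140 F2, whose X share is below the male range, and Q140_Msh3KO M1, the females' counts were 26 and 83. By cyclic loess the counts were 126 and 225 in females and 153 and 343 in males. Of those called in females, 50 of 52 and 154 of 156 had the same sign in males, where their medians were 0.80 and -0.61, against 0.84 and -0.79 in females. Of those called in males, 69 of 69 and 101 of 102 had the same sign in females. The members' median was -0.08 in females and 0.00 in males, and without WT F3, a female library, the medians were 0.01 and 0.02. The medians and same-sign counts by sex are otherwise from all 24 libraries.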

How the data were processed

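ATAC-seq was made from sorted NeuN+ striatal nuclei of 24 mice, 6 per genotype. The authors deposited 1 table of raw read counts in 147020 peaks for all libraries. The tools named per the submitters' processing notes are featureCounts, MACS2, Picard, SAMtools and BWA, with build GRCm38. For their versions and settings, the treatment of duplicates and any shift of the transposase cut sites, the sources used here give nothing. Reads were counted in 1 shared set of peaks, so a width is a property of the pooled data. Every library has 1 column, and 0 columns of sample values were left over.

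Tests used edgeR 4.0.16 (R 4.3.3): TMM scaling, filterByExpr with a count minimum of 10 (146155 peaks kept), a robust quasi-likelihood fit with terms for genotype and sex over all 24 libraries, and Benjamini-Hochberg adjustment over all tested peaks at 0.05. The SE is the absolute log2 fold change divided by the square root of F. The interaction is the Q140 difference without the Msh3 knockout minus that with it, and sexes were compared in a genotype by sex model. The fit was tested on simulated data. Alternatives were DESeq2 1.42.0, limma-voom (limma 3.58.1), total count scaling, cyclic loess with limma-trend, no filter, a replicate block, no sex term, leaving out libraries, and other minimum widths. Splits without WT F3 by width, level, distance, gene list, gene and sex were added after seeing the data.

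Members were named by a rule: the 5 widest and the 5 most accessible per kb, the called members of largest difference without overlap (10 in each direction for Q140 against WT, 6 for Q140_Msh3KO against Q140, 4 against Msh3KO), the called members of Msh3KO against WT and of the interaction, 1 per gene list, and those of the 10 genes with most members. Others were named after their values were seen. The members and gene lists were chosen with earlier results of these data known. Gene positions, hosts and start windows came from RefSeq (GRCm38.p6). 0 pairs of libraries held identical counts.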

Additional observations from a re-analysis of the deposited data

Results flagged for a closer look

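Of 184 groups of 6 libraries examined at the named members and their shares of counts, 15 held 1 library set apart from the other 5 by more than Dixon's 95% limit. Chance gives about 1 group in 20.

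At the Col19a1 member WT F1 stood at 28866.9 CPM, against 8539.24 to 12640.9 in the other WT libraries. At the Gad2 member starting at 22588502 it stood at 1982.07 (others 568.542 to 906.475) and Msh3KO F1 at 1883.97 (423.214 to 953.948). At the Gad2 member starting at 22587404 the values were 981.055 in WT F1 (263.839 to 432.501) and 945.599 in Msh3KO F1 (188.892 to 407.665). WT F1 also had 10.3131% of its counts in members (8.51068 to 9.15937) and 2.82121% in the Col19a1 member (0.845934 to 1.24818). WT F3 had 8.38436% in members without the highest (7.64118 to 7.82595).

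Q140_Msh3KO M1, whose 10 highest peaks held 12.7% of its counts, stood at 290.097 CPM (108.912 to 154.676) and 419.948 CPM (163.998 to 224.592) at the 2 members near 9230019H11Rik, and at 10.0408 (12.7722 to 13.6197) at the Sv2c member named by Iqgap2. Tsnax was at 200.797 CPM in Q140 F3 (106.198 to 128.632), Mir6363 at 16.6375 in Q140_Msh3KO M3 (6.88373 to 10.0748), Fbxo34 at 7.91148 in Msh3KO M2 (4.89594 to 5.99039) and Aqp4 at 14.2936 in Q140 F1 (23.0404 to 26.4711).

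1 difference between backgrounds passed its own test. At the Hoxc8 member the Q140 difference without the Msh3 knockout exceeded that with it by 1.46806 on the log2 scale (edgeR, adjusted p 0.00192).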

How the results depend on the processing

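Over 8 other settings, the counts for Q140 against WT and Msh3KO against WT stayed within 1.5 times the reported ones, except 413 higher in Q140 by cyclic loess, where 26.6% of members were called in either direction against 16.4%; 67 of 97 summary values did so in all. Cyclic loess with limma-trend gave 127 higher and 35 lower in Q140_Msh3KO against Q140, 12 and 21 against Msh3KO, 58 and 65 against WT, and 47 interactions. Total count scaling gave 17 lower against Q140, 2 higher and 4 lower against Msh3KO, 24 lower against WT and 2 interactions. DESeq2 gave 2 and 6 against Msh3KO, 23 lower against WT and 5 interactions, and limma-voom 0 higher against Msh3KO. No filter gave 2 lower against Msh3KO, 20 lower against WT and 2 interactions, and no sex term 2 lower against Msh3KO. Without Q140 F2 and Q140_Msh3KO M1 the counts were 9 and 3 against Q140, 4 and 3 against Msh3KO and 31 higher against WT. Why the counts moved was not tested.

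With the replicate block, Q140 against WT had 227 higher and 477 lower, Q140_Msh3KO against Q140 38 and 13, Q140_Msh3KO against Msh3KO 1 and 2, Q140_Msh3KO against WT 24 and 23, and the interaction 4. Whether the numbers pair animals was not settled. The 36 same-number pairs correlated at -0.438 to 0.448 (median 0.03), and pairs of other numbers in 1 sex had a median of -0.02. Among libraries of the same sex and other genotypes, 15 of 24 libraries correlated best with their own number. That is more than random picking among the 3 numbers of a sex would give. The reported fit has no term for the number.

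With 1 library left out, the ranges were 152 to 281 higher and 257 to 549 lower in Q140 against WT, 0 to 0 and 1 to 1 in Msh3KO against WT, 12 to 41 and 3 to 22 in Q140_Msh3KO against Q140, 0 to 4 and 0 to 17 against Msh3KO, 3 to 32 and 2 to 22 against WT, and 1 to 11 interactions. Of 3192 such values of named members, 3112 kept direction and call, 61 lost and 17 gained a call, and 2 turned sign, both uncalled and both without WT F3: Rbfox1 chr16:7193393-7194494 (range -0.20 to 0.035) and Dclk1 chr3:55542293-55543640 (-0.12 to 0.10). Minimum widths of 800 and 1500 bases gave 18.7% and 12.2% called, and 1 between 1000 and 1500 gave 14.3%.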
